A study of Mus musculus with 112 samples.

Results

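The regions described here are the stretches of mouse chromosome 6 from position 20000000 to its end (genome build GRCm38, mm10) for which reduced representation bisulfite sequencing (RRBS) gave the percent DNA methylation (DNAme) of CpG cytosines. They were found by taking every CpG cytosine listed in any of the 13 deposited tables, joining cytosines at most 100 bp apart, and keeping runs of at least 3 cytosines. The 207764 positions on this stretch of chromosome 6 gave 21261 regions, and the 4388579 positions of the whole series 437422. For the tests, regions were built anew in each tissue by the same joining from cytosines with a value in at least 4 libraries of every group, so their limits can differ between tissues, and those longer than 50 bp were kept. The chromosome 6 stretch then held 2814 of the 62831 tested regions of F0 sperm, 1499 of the 33449 of F1 sperm and 3589 of the 80920 of F1 brain. The chromosome was chosen because it held many differences between Nrf2-/- and wild type (WT) sperm, so counts and values of that contrast in F0 sperm are given below as a description. Regions called in that contrast serve as a list, and no p-value is printed for it.

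The 112 libraries formed 13 groups. F0 sperm came from C57BL/6J WT males that were never exposed to cigarette smoke (CS; control WT, n = 10), that had been exposed and were sampled at the end of exposure (smoked WT, n = 9), or that were sampled in 3 groups at increasing times after the end of exposure, between 28 and 171 days (recovery 1, n = 9; recovery 2, n = 10; recovery 3, n = 10), and from Nrf2-/- males without (control Nrf2-/-, n = 10) and with CS (smoked Nrf2-/-, n = 9). Sons were sampled as F1 sperm, from 6 sons of control WT and 7 of smoked WT sires, and as F1 brain (prefrontal cortex in the study's methods), from 8 sons for each kind of sire, WT or Nrf2-/- and control or smoked. The Nrf2-/- line carries a targeted Nfe2l2 gene in all cells on a C57BL/6J background. Its sons by WT mothers carry 1 targeted allele. The methods name CAST/EiJ mothers for the sons and do not describe the crosses of Nrf2-/- sires separately, so a percent in a son can mix DNAme with strain sequence. The sample titles do not tie sons to sires or litters, and the tests count each son as independent. The labels give no ages. Control WT males were collected with the smoked WT males at the end of exposure, so recovery males were older than their controls, and time since CS and age cannot be told apart.

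In mammals, DNAme is found almost wholly at cytosines followed by guanine. It is laid down in male germ cells before birth, kept through spermatogenesis, and largely erased and rebuilt in the early embryo, so that sperm and brain carry different patterns. CpG islands at gene starts are mostly unmethylated in both, while scattered CpGs in gene bodies and between genes are mostly methylated. NRF2, the protein of Nfe2l2, is a transcription factor that turns on genes of the antioxidant defence. Chromosome 6 carries the HoxA cluster of body-plan genes, the imprinted genes Mest and Nap1l5, many genes of synapses, and large families of taste, pheromone and killer cell receptors.

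The number of chromosome 6 positions with a value per library ranged from 38047 to 87769 for F0 sperm, from 25156 to 67006 for F1 sperm and from 60634 to 76391 for brain. The tables hold percents without read counts, so the depth behind a value is unknown. Among chromosome 6 values strictly between 0 and 100, the percent that were exactly equal between any pair of libraries of a tissue was at most 2.07 for F0 sperm, 5.06 for F1 sperm and 1.78 for brain, and no library was counted as a copy of another. As a check of genotype, of 6 cytosines of Nfe2l2 (on chromosome 2) with a value in all 48 WT libraries, 4 had a value in 0 of 19 Nrf2-/- libraries. As a check of tissue, the region at the start of the imprinted gene Nap1l5 had group means of 0.267 to 0.914% in F0 sperm and of 18.5 to 27.3% in brain. It was thus near 0 in sperm and partly methylated in brain, which separates the tissues. Mest had 0 tested regions within 1000 bp of its start. Columns of a table carry no replicate number and are named here by their order. Their facility numbers ran from 1 to 20 for Nrf2-/- and from 21 to 70 for WT in F0 sperm, and from 1 to 16 for sons of Nrf2-/- and from 17 to 32 for sons of WT sires in brain, so that genotype and number run cannot be told apart. The labels of 1 brain sample titled as a son of a control WT sire give its strain as that of the Nrf2-/- line, and it was grouped by its title. Libraries that stood apart from their group at several of the sites described next were column 10 of control Nrf2-/- F0 sperm, column 5 of control Nrf2-/- brain and columns 5 and 7 of smoked Nrf2-/- brain.

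The sequences on which the results turn are printed here from the RefSeq genome (GRCm38, forward strand, 5′ to 3′). In the first 6, which carry the genotype difference in F0 sperm, capitals mark the CpG of a cytosine that was more than 50 points apart between the genotypes, except in the first Osbpl3 region, where capitals mark the CpGs of all 5 measured cytosines. In the last 3, which carry the change with time after CS, capitals mark the CpGs of the measured cytosines.
Gsdme intron, chr6:50243483-50243563: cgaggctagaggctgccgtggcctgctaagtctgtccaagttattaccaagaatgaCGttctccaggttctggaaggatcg
Single cytosine at 50299512, chr6:50299472-50299552: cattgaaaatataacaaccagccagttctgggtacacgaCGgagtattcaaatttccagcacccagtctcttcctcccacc
Osbpl3 coding exon, chr6:50323081-50323163: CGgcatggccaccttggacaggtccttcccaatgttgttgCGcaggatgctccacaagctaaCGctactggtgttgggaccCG
Osbpl3 region nearer the 5′ end of the gene, chr6:50345941-50346113: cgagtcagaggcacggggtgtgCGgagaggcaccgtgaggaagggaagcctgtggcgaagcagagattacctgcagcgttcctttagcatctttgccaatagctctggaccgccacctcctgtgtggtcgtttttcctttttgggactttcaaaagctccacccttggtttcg
Intergenic, nearest Npvf, chr6:50753504-50753672: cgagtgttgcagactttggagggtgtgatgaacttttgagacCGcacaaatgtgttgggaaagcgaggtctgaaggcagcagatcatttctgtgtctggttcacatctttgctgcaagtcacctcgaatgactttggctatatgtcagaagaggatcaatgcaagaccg
Creb5 intron, chr6:53308736-53308831: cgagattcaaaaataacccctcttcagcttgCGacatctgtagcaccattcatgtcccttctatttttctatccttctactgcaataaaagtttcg
Dnah6 coding exon, chr6:73060183-73060283: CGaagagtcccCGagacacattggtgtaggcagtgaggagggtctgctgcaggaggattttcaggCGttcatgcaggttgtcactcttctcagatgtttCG
Prickle2 intron, chr6:92596847-92596911: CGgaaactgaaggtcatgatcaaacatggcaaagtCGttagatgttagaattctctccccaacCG
Intergenic, nearest Adamts9, chr6:93274288-93274355: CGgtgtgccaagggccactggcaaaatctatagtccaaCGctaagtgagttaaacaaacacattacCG

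Most chromosome 6 regions called between Nrf2-/- and control WT sperm had lower DNAme in Nrf2-/- sperm, and 7 of those called in each contrast lay in the 5-Mb bin of Osbpl3. With limma, a linear model fitted to all regions of the genome with 1 mean per group and p-values adjusted by Benjamini-Hochberg, a region was called at an adjusted p under 0.05. In control Nrf2-/- sperm 20 chromosome 6 regions were called (1 higher and 19 lower), 0.711% of those tested, where 0.409% were called over the genome (0.108% higher and 0.301% lower). In smoked Nrf2-/- sperm 18 were called (4 higher and 14 lower), 0.64%, where 0.357% were called over the genome (0.137% higher and 0.22% lower). Since the chromosome was chosen on this contrast, nothing is read from these shares. Both contrasts share the control WT libraries. They called 25 regions in all, every one with the same sign in both, and 13 regions were called in both (0.462%, against 0.201% over the genome). Of these 13, 12 were lower and 1, in the coding sequence of Erp27, was higher. In 5-Mb bins, 7 of the 13 lay among the 204 tested regions between 50000001 and 55000000, and 3 lay among 54 regions from 105000001 to 110000000. By whole chromosome, 0.989% of the regions of chromosome 6 were called in control Nrf2-/- sperm, 0.743% of chromosome 2 and 1.3% of chromosome 13. The start of chromosome 6 before 20000000, which is not described here, held 10 called of 220 regions (4.55%). At the boundary the last tested region before it (chr6:19645071-19645231, 9 cytosines) differed by -2.51 points in control Nrf2-/- and by -2.0 in smoked Nrf2-/- sperm, and the first after it (chr6:20179712-20179781, 4 cytosines) by 4.26 and 1.29 points.

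**Figure D1:**
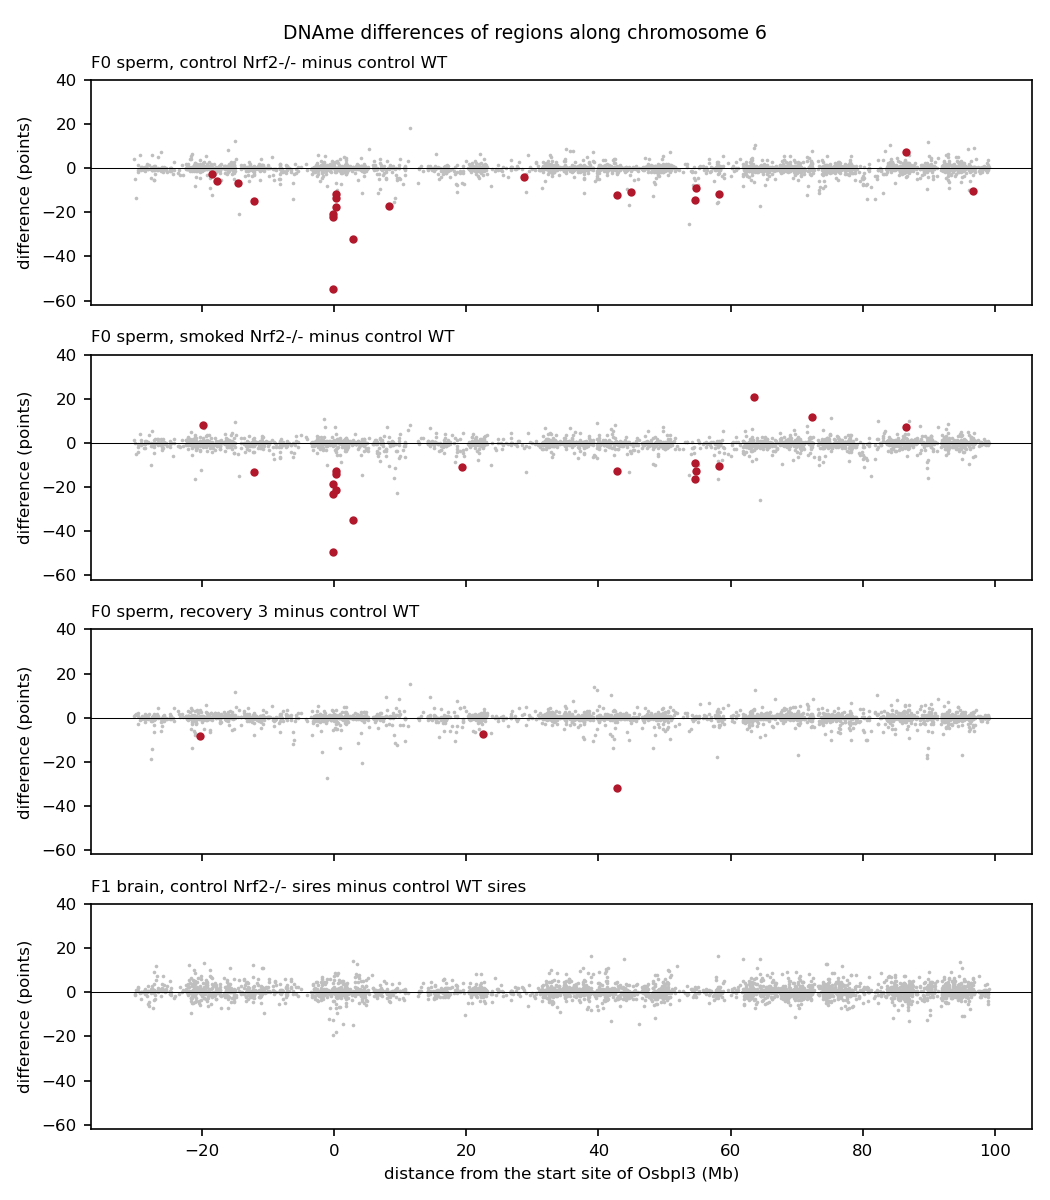
Difference in DNAme (percentage points, vertical axis) of each tested chromosome 6 region against its distance in Mb from the start of Osbpl3 (horizontal axis) for control Nrf2-/-, smoked Nrf2-/- and recovery 3 against control WT in F0 sperm and for sons of control Nrf2-/- against control WT sires in brain. Grey points are tested regions and red points regions called by limma: 20, 18, 3 and 0 in the 4 panels, and in both genotype panels in sperm the lowest points stand close to the Osbpl3 start.

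The 13 regions called in both genotype contrasts differed in level and place from the tested regions of the chromosome. Of these 13, 12 were called lower, and a region near 0% cannot fall. The choice itself therefore favours high levels and places away from the mostly unmethylated gene starts. Nothing is read from the shares of these 13 regions. Their median DNAme in control WT sperm was 82.1%, against 9.60% over all tested chromosome 6 regions, and 0% lay within 1000 bp of a gene start, against 38.1%. By place, 6 were intergenic, 3 intronic and 3 in coding exons, and the remaining 1 lay in an exon of a noncoding gene. Their median GC content was 47.34%, against 55.7%, and their ratio of observed to expected CpGs was 0.684, against 0.73. RRBS libraries were cut with MspI and TaqαI. The TaqαI site TCGA lay in or near 84.62% of these regions and 58.1% of all. The MspI site CCGG lay in or near 30.77% and 68.55% (both read the same on either strand, and the sites cannot overlap each other). The search took in bases flanking each region, so these are not shares of regions with a site inside.

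Distances to a gene below are to the nearest start of any of its annotated transcripts (GENCODE M21). Within the stretch near Osbpl3, the deepest difference of a region mean was in Osbpl3 itself, which codes for a lipid transfer protein of the oxysterol-binding family. At chr6:50323081-50323163, a coding exon 22727 bp from a start of the gene, DNAme in control WT sperm ran from 69.2% through a median of 84.7% to 91.0% (n = 8). The other WT groups had medians of 79.3% (smoked WT, n = 7), 83.4% (recovery 1, n = 7), 81.9% (recovery 2, n = 10) and 79.4% (recovery 3, n = 10). Control Nrf2-/- sperm ran from 5.00% through 23.2% to 65.5% (n = 9), and smoked Nrf2-/- sperm from 14.3% through 33.1% to 55.8% (n = 8). Among libraries with a region value neither Nrf2-/- group overlapped control WT, and the highest Nrf2-/- library was column 10 of the control group. Columns 2 and 6 of control WT had too few cytosines for a region value, and single cytosines did overlap, since control WT column 6 stood at 27.3% at 50323081, where control Nrf2-/- libraries reached 73.3% (column 10). All 5 cytosines on both strands shared the difference, which ranged from -60.9 to -46.5 points in control and from -57.5 to -42.0 points in smoked Nrf2-/- sperm.

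In 5 other regions of the stretch 1 or 2 cytosines carried most of the difference. In an intron of Creb5, a gene for a transcription factor of the CREB family, at chr6:53308736-53308831 and 2040 bp from a start of the gene, control WT sperm lay between 91.7 and 98.4% (median 95.9%, n = 10). Control Nrf2-/- sperm lay between 59.6 and 73.3% (median 63.4%, n = 10) and smoked Nrf2-/- sperm between 58.4 and 63.5% (median 60.9%, n = 9). Neither Nrf2-/- group overlapped control WT, and the other 4 WT groups had means between 95.4 and 96.8%. Leaving out its 1 cytosine more than 50 points apart, the cytosines of this region differed by -2.48 to -1.84 points in control and by -5.20 to -3.97 points in smoked Nrf2-/- sperm. The same held in an intron of Gsdme, which codes for the pore-forming protein gasdermin E (chr6:50243483-50243563, 18184 bp from a gene start). There control WT sperm had 95.7% ± 3.95 (SD, n = 10), control Nrf2-/- sperm 73.7% ± 5.15 (n = 10) and smoked Nrf2-/- sperm 72.4% ± 1.87 (n = 9), while its other cytosines differed by -0.336 to 2.68 and by -1.37 to 3.20 points. The control WT and control Nrf2-/- groups overlapped through 1 library each, at 85.0% and 87.9%.

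A region of Osbpl3 that overlaps a coding exon nearer the 5′ end of the gene (chr6:50345941-50346113, 5844 bp from a gene start) went from 96.4% ± 4.09 (n = 8) in control WT to 75.9% ± 13.1 (n = 9) and 77.6% ± 4.31 (n = 6), its other cytosines differing by -7.56 to 3.28 points over both contrasts. The intergenic region 99065 bp from the start of Npvf, the gene of the neuropeptide VF precursor (chr6:50753504-50753671, printed above with its last CpG completed), went from 93.1% ± 4.8 (n = 10) to 75.7% ± 3.01 (n = 10) and 71.9% ± 4.92 (n = 9). Its other cytosines differed by -5.43 to 5.39 points. An intron of the noncoding gene C530044C16Rik (chr6:50781121-50781438, 14 cytosines) went from 96.7% ± 1.76 (n = 10) to 83.4% ± 1.08 (n = 10) and 82.7% ± 1.11 (n = 9), with 2 cytosines more than 50 points apart and the others between -5.07 and 2.81 points. With the cytosines over 50 points left out of every region, an added alternative, 12 regions were called in control and 11 in smoked Nrf2-/- sperm on chromosome 6, in place of 20 and 18.

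The remaining regions called in both contrasts differed at all their cytosines. A second intergenic region near Npvf (chr6:50765590-50765688, 3 cytosines) went from 20.6% in control WT to 8.69% and 8.06% in control and smoked Nrf2-/- sperm. An exon of the noncoding gene Gm43578 (chr6:38365889-38366002) went from 74.9% ± 4.86 (n = 10) to 60.0% ± 5.82 (n = 10) and 61.8% ± 6.71 (n = 9), with all 8 cytosines lower in both. The intergenic region near Adamts9, a gene for a secreted metalloprotease, went from 65.9% to 53.9% and 53.3%, with 4 of 4 cytosines lower. At 532608 bp from Cntn6, a contactin of neuronal adhesion (chr6:105025856-105026000), the 3 cytosines took the region from 82.6% to 68.0% and 66.2%. The other 3 were outside the rule for named regions and were chosen after their values were seen. At 412711 bp from Cntn4, another contactin (chr6:105264807-105264949), DNAme went from 71.9% to 62.9% and 59.3%. At 45441 bp from Bhlhe40, a transcription factor of circadian control (chr6:108708487-108708626), it went from 31.3% to 19.8% and 20.8%, lower at 8 of 8 cytosines. In a coding exon of Erp27, a protein of the endoplasmic reticulum (chr6:136911449-136911598), it went from 65.3% to 72.8% and 72.7%, higher at 5 of 5 cytosines.

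Among the 12 regions called in only 1 contrast, 21.1 points was the highest difference, in an untranslated exon of Atp2b2, a plasma membrane calcium pump, from 51.7% ± 10.2 (n = 9) in control WT to 72.7% ± 6.80 (n = 6) in smoked Nrf2-/- sperm. Control Nrf2-/- sperm lay at 61.0% ± 13.4 (n = 8) there. An intron of Slc2a3, a glucose transporter, went from 15.0% to 26.8% in smoked Nrf2-/- sperm, and a coding exon of Cpa1, a pancreatic carboxypeptidase, was higher by 8.28 points in the same group. The lowest was an intergenic region near Abcg2, at -17.0 points in control Nrf2-/- sperm. The other 8 differed by -10.9 to -2.57 points in the contrast that called them.

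Single cytosines showed the stretch more sharply than regions. Of 47291 scoreable cytosines on this stretch of chromosome 6, 8 were more than 50 points lower than control WT in both Nrf2-/- groups (0.0169%, against 0.00811% or 83 of 1023708 over the genome), and 0 were as much higher. All 8 lay between positions 50243540 and 53308767. At more than 70 points 7 remained, and at more than 20 points the differences went both ways and spread over the chromosome, with 53 lower (0.112%, against 0.0812% over the genome) and 45 higher (0.0952%, against 0.089%). Counting both directions over the genome, cytosines more than 50 points apart lay on 5 chromosomes, with 23 on the whole of chromosome 6, 24 on chromosome 2, 35 on chromosome 13, 8 on chromosome 11 and 2 on chromosome 10. On chromosome 6, 0 cytosines were more than 50 points from control WT in smoked WT or in any recovery group.

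**Figure D2:**
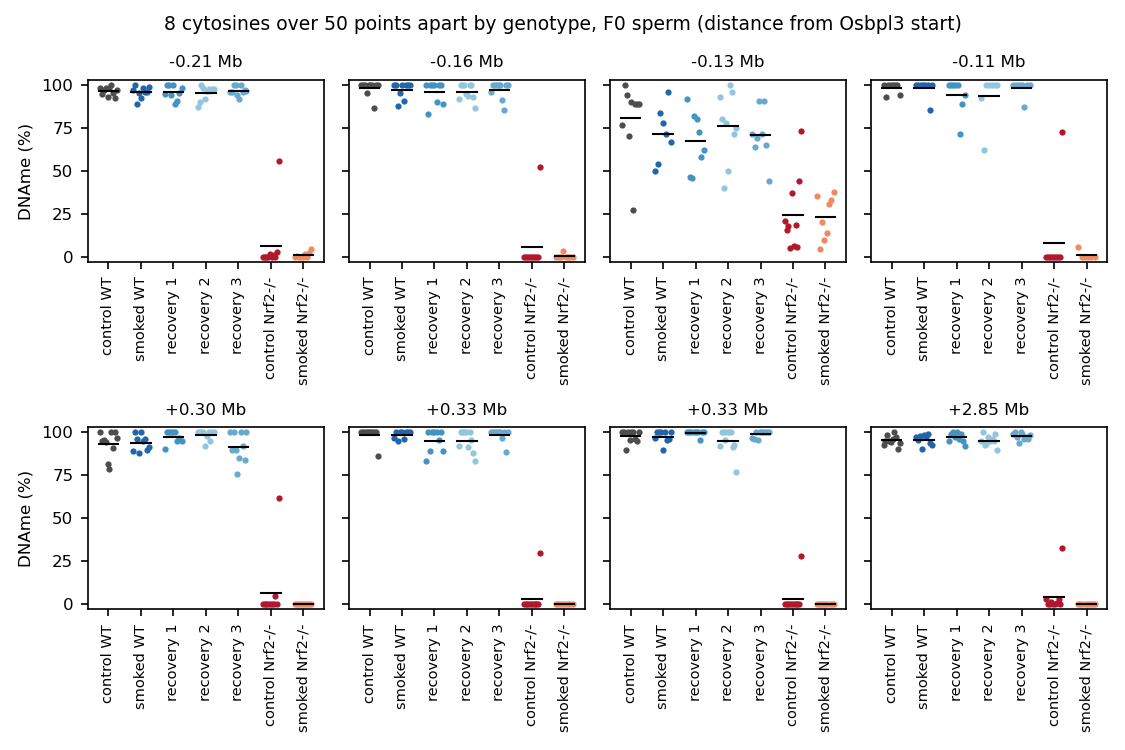
DNAme (percent, vertical axis) at the 8 chromosome 6 cytosines more than 50 points lower in both Nrf2-/- groups, 1 panel per cytosine titled by its distance in Mb from the Osbpl3 start, in the 7 groups of F0 sperm (horizontal axis); points are libraries and bars group means. The 5 WT groups sit high and both Nrf2-/- groups sit near 0 in 7 of the panels, with control Nrf2-/- column 10 between them.

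At these cytosines Nrf2-/- libraries were near 0 rather than shifted in part. At 50753546, near Npvf, control WT sperm averaged 93.2%, smoked Nrf2-/- sperm 0.0%, and the control Nrf2-/- libraries were at 0 except for column 8 at 4.8% and column 10 at 61.7%. At 53308767 in Creb5, control WT averaged 95.4% and smoked Nrf2-/- 0.0%, with control Nrf2-/- column 10 at 32.5% and the other 9 columns at 0 to 3.0%. At 50243540 in Gsdme the means were 96.6%, 6.18% and 0.982% in control WT, control Nrf2-/- and smoked Nrf2-/- sperm, and column 10 stood at 56.1%. The cytosine at 50299512, in an exon of a noncoding Osbpl3 transcript and in no region, had means of 98.2%, 5.80% and 0.417%, with column 10 at 52.2%. At 50345963, in the intron part of the Osbpl3 region nearer the 5′ end, they were 98.5%, 8.1% and 1.0%, with column 10 at 72.7%. At 50781345 and 50781377 in C530044C16Rik control WT averaged 98.6% and 97.7%, smoked Nrf2-/- 0.0% at both, and column 10 stood at 29.7% and 27.8%. The cytosine at 50323081 in Osbpl3 was the exception to values near 0, with means of 80.7%, 24.5% and 23.2% and column 10 at 73.3%. In bisulfite reads a CpG whose C is a T in the DNA is read as unmethylated, so a value at 0 from lost DNAme and one from a different base cannot be told apart in these percents.

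Whether a cytosine had any value also differed by genotype in the same stretch. On chromosome 6, 40 cytosines had a value in at least 44 of the 48 WT libraries and in at most 1 of the 19 Nrf2-/- libraries, of 30026 that met the WT condition (655 of 644145 over the genome). All 40 lay between 49778191 and 53533959. In the opposite direction 17 cytosines had a value in at least 17 Nrf2-/- and at most 1 WT library, of 29870 (276 of 639590 over the genome), and 16 of these lay between 49918786 and 52094287. Of the 40, 12 had a value in at least 7 of 8 brain libraries of every group of sons.

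The brains of sons are other animals than the males on which the chromosome was chosen, but their sires came from the same lines. In brain 7 of the 8 cytosines were lower on average in sons of control Nrf2-/- sires than in sons of control WT sires. Of all chromosome 6 brain regions 33.99% were lower in this contrast, and the share of single cytosines is not given here. The 8 cytosines lie in the same stretch and mostly the same libraries differ at them, so they do not count as separate observations. At 53308767 in Creb5, sons of control WT sires averaged 65.8% and sons of smoked WT sires 61.9%. The 8 sons of control Nrf2-/- sires had 0, 5.6, 3.2, 0, 51.2, 0, 0 and 5.7% in columns 1 to 8, so that column 5 alone lay near the WT sons. The difference of -57.5 points (SE 8.03) passed in a limma fit over all 1390836 brain cytosines (adjusted p = 0.00449), in which 0.00216% of cytosines were called. Sons of smoked Nrf2-/- sires had 46.5, 57.9, 61.4, 42.1, 4.8, 50.0, 0 and 62.2%, with columns 5 and 7 near 0 and the others near the WT sons.

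The same libraries stood apart at the other sites. At 50753546, near Npvf, sons of control WT sires lay between 75.0 and 91.9%. Of the sons of control Nrf2-/- sires 7 were at 0 and column 5 at 86.8%, a difference of -74.9 points (SE 12.9, limma adjusted p = 0.0998). Sons of smoked Nrf2-/- sires had 0 in columns 5 and 7 and 70 to 100% in the others. At 50243540 in Gsdme the sons of control WT sires averaged 77.1%, column 5 of the control Nrf2-/- group stood at 83.6% and the other 7 at 0 to 3.8% (-65.9 points, limma adjusted p = 0.193). Columns 5 and 7 of the smoked Nrf2-/- group were at 0 there and the other 6 between 64.3 and 88.2%. At 50345963 in Osbpl3 sons of control WT sires averaged 97.6% (n = 6), 7 sons of control Nrf2-/- sires were at 0 and column 5 at 100% (-85.1 points, limma adjusted p = 0.316). Only 5 sons of smoked Nrf2-/- sires had a value, with column 5 at 0, 4 others at 100% and none for column 7. At 50781345 and 50781377 in C530044C16Rik the means in sons of control WT sires were 36.4% and 41.0%, and column 5 of the control Nrf2-/- group, at 37.3% and 43.3%, again matched them while the other 7 lay at 0 to 4.3% (limma adjusted p = 0.398 and 0.442). In the smoked Nrf2-/- group column 5 stood at 2.82 and 0%, column 7 at 5.77 and 0%, and column 6 at 20.5 and 35.9%. At 50299512 sons of control Nrf2-/- sires averaged 41.8% against 77.9% (limma adjusted p = 0.544), with column 5 at 83.3% and the other 7 between 20.0 and 50.0%, and columns 5 and 7 of the smoked Nrf2-/- group stood at 54.5 and 24.3%. The Osbpl3 cytosine at 50323081, whose neighbours differed with it in sperm, had 36.6% in sons of control Nrf2-/- and 32.1% in sons of control WT sires, a difference of 4.57 points (SE 6.15, limma adjusted p = 0.997). At 6 cytosines 7 of 8 sons of control Nrf2-/- sires thus lay near 0 and column 5 near the WT sons. Sons of smoked Nrf2-/- sires lay near 0 in columns 5 and 7 where these had a value, and the others near the WT sons except for column 6 at 50781345, which lay between. By the described breeding each son has an allele from its mother, and with 0% no read from either allele was counted as methylated.

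**Figure D3:**
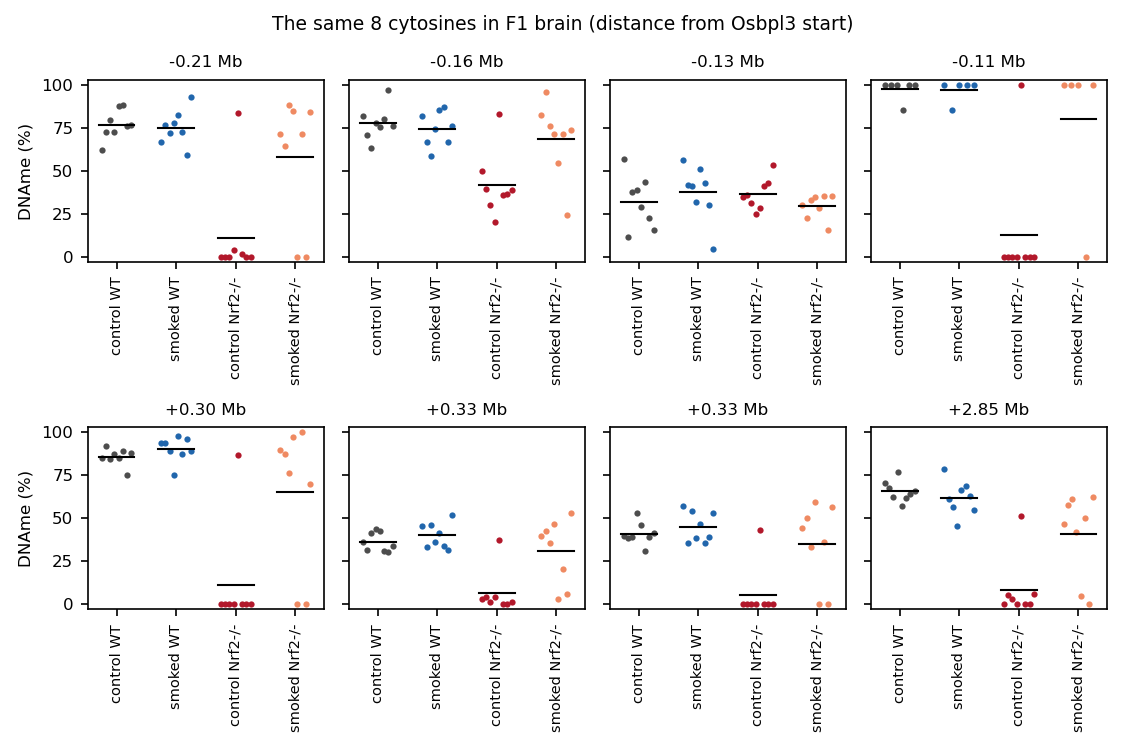
DNAme (percent, vertical axis) at the same 8 cytosines in F1 brain for sons of control WT, of smoked WT, of control Nrf2-/- and of smoked Nrf2-/- sires (horizontal axis); points are libraries and bars group means. In 6 panels 7 sons of control Nrf2-/- sires lie near 0 and 1 lies with the WT sons, and at most 2 sons of smoked Nrf2-/- sires lie near 0.

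Counted over regions, the brain gave 0 chromosome 6 regions called by limma in sons of control Nrf2-/- sires (0.0124% called over the genome) and 0 in sons of smoked Nrf2-/- sires (0.0198%). At an unadjusted p under 0.05 stood 308 (8.58%, where 7.77% did over the genome) and 356 (9.92%, where 10.4% did). The region near Npvf at 50753504 had the smallest p of the first contrast. Its sons of control WT sires lay between 76.5 and 84.6%, and the sons of control Nrf2-/- sires at 60.0, 64.8, 61.4, 63.9, 80.5, 60.2, 51.2 and 62.9%, lower than the WT mean in 8 of 8 (-17.8 points, SE 3.36, limma adjusted p = 0.069). Without column 5 it was called, at -20.3 points (limma adjusted p = 0.00274), and so was Gsdme (limma adjusted p = 0.00977, from 0.47 with all libraries), which went from 80.7% ± 6.05 to 61.5% ± 14.0 (n = 8 each). Column 5 had stood high at cytosines of these same regions, so calls made without it are no added support. Of 16 fits that dropped a library each, the count of called regions moved only in this fit. Creb5 went from 52.7% to 38.1% (limma adjusted p = 0.486), the Osbpl3 region nearer the 5′ end from 86.2% to 73.6% (0.64 likewise adjusted) and C530044C16Rik from 68.4% to 61.1% (0.64). The Osbpl3 region at 50323081 had group means of 53.7, 56.8, 57.8 and 53.0% in sons of control WT, of smoked WT, of control Nrf2-/- and of smoked Nrf2-/- sires, and differed by 4.08 points between sons of control Nrf2-/- and of control WT sires (limma adjusted p = 0.807). Of the 25 regions called in either genotype contrast in sperm, 24 had a brain region. In sons of control Nrf2-/- sires 13 of these were lower, where 33.99% of all chromosome 6 brain regions were lower, and in sons of smoked Nrf2-/- sires 16 were lower, where 49.4% of all were. Their median differences were -0.324 and -0.475 points, against 0.406 and 0.035 over all chromosome 6 brain regions.

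Outside the stretch, brain differences by genotype of the sire were few. At 123754469 and 123754497, intergenic positions 24410 and 24382 bp from the pheromone receptor gene Vmn2r24, sons of control WT sires averaged 12.1% ± 4.57 and 21.9% ± 7.19 (n = 8). Sons of control Nrf2-/- sires had 37.6% ± 9.53 and 44.5% ± 7.94, and sons of smoked Nrf2-/- sires 40.4% ± 7.09 and 44.5% ± 3.99, while sons of smoked WT sires had 12.1% and 22.6%. The differences passed in the single-cytosine fit in both contrasts, at 25.4 points (limma adjusted p = 0.00181) and 28.2 points (2.21e-04 likewise adjusted) for the first position and at 22.5 points in both for the second (0.0102 and 0.00841). At the first position the lowest son of an Nrf2-/- sire, at 27.5%, lay above the highest son of a WT sire, at 18.6%. In an intron of Eva1a (82042919), 4 sons of smoked Nrf2-/- sires with a value lay between 10 and 20%, where the sons of control Nrf2-/- sires were all at 0 and those of control WT sires between 0 and 4.17% (14.8 points, limma adjusted p = 8.57e-05, and 15.6 points, 2.26e-04). These 3 positions and the Creb5 cytosine were all the chromosome 6 cytosines called between genotypes in brain, 3 in each contrast with control WT sires (0.00331% of cytosines called over the genome in sons of smoked Nrf2-/- sires) and 1 between the Nrf2-/- groups (0.000935%).

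In 2 further contrasts the region with the smallest p did not pass. An intron of Foxj2, a forkhead transcription factor, 304 bp from a start of the gene (chr6:122826197-122826371), had 0.8% in sons of control WT and 5.2% in sons of smoked Nrf2-/- sires (4.35 points, SE 0.838, limma adjusted p = 0.0703). The groups only just failed to overlap, with the highest son of a control WT sire at 3.272% and the lowest son of a smoked Nrf2-/- sire at 3.333%. A son of a smoked WT sire stood at 3.604%. In sons of smoked against control Nrf2-/- sires, with 0 regions called by limma (0.00124% over the genome) and 303 or 8.44% at an unadjusted p under 0.05 (9.63% over the genome), an intron of Itpr1, a calcium channel of the endoplasmic reticulum (chr6:108460564-108460625), went from 65.9% to 72.1% with no overlap (6.23 points, SE 1.43, limma adjusted p = 0.221). Between sons of smoked and control WT sires 1 region was called (0.00124% over the genome), an intron of the noncoding gene Gm19265 (chr6:85996607-85996705), which rose from 68.7% to 76.3% (7.61 points, SE 1.17, limma adjusted p = 0.0332) in 8 of 8 sons. The groups overlapped, the call held in 5 of 16 fits that dropped a library each, and sons of control and smoked Nrf2-/- sires lay at 73.3% and 72.3%.

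After the end of CS exposure the called regions all lost DNAme and lay outside the stretch near Osbpl3. They were few, so nothing is read from their place, and the region near Adamts9 was also called in both genotype contrasts. Against control WT, limma called 0 regions in smoked WT sperm (0.00159% called over the genome) and 0 in recovery 1 (0%), 2 lower in recovery 2 (0.00637%) and 3 lower in recovery 3 (0.043%, with 0.0414% called lower). At an unadjusted p under 0.05 stood 123 regions (4.37%, where 3.91% did over the genome) in smoked WT sperm and 154 (5.47%, where 5.28% did) in recovery 1. Recovery 3 against smoked WT gave 4 lower (0.0493%, with 0.0382% called lower), and a slope over smoked WT and the 3 recovery groups in order gave 4 lower (0.0477%, with 0.0414% called lower). The regions of these contrasts are the same 4, which share groups between contrasts.

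The region near Adamts9 changed most. Control WT sperm lay between 55.0 and 71.2% (median 66.9%, n = 10) and smoked WT sperm between 48.6 and 73.6% (median 67.1%, n = 9). Recovery 1 lay between 45.6 and 65.7% (median 53.2%, n = 9), recovery 2 between 34.2 and 47.8% (median 40.2%, n = 10) and recovery 3 between 28.1 and 43.6% (median 33.1%, n = 10). The last 2 groups did not overlap control WT, and the slope over the exposed groups was -10.5 points per step (SE 0.944, limma adjusted p = 1.81e-11). Of its 4 cytosines the first, at 93274288, was the lowest in control WT sperm, at 43.2%, and had 18.7, 13.5 and 7.12% in recovery 1, 2 and 3. The last, at 93274355, went from 72.0% to 59.8, 42.2 and 35.7%. In Nrf2-/- sperm these 2 outer cytosines also differed most, at -21.3 and -16.4 points in control Nrf2-/- sperm, against -6.11 and -6.71 points at the 2 inner ones. In recovery 3 the inner cytosines differed by -25.7 and -29.1 points and the outer ones by -36.1 and -36.3 points. In F1 sperm the region lay at 93.3% ± 4.75 (control WT sires, n = 6) and 94.3% ± 2.84 (smoked WT sires, n = 7), and in brain at 32.3, 41.7, 37.1 and 23.8% in sons of control WT, of smoked WT, of control Nrf2-/- and of smoked Nrf2-/- sires.

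A coding exon of Dnah6, a heavy chain of the dynein motor of cilia and flagella, 78722 bp from a start of the gene, lost a few points from a high level. Control WT sperm had 89.8% ± 2.42 (n = 10), smoked WT sperm 89.3% ± 1.86 (n = 9) and recovery 1 sperm 89.4% ± 1.63 (n = 9), and then recovery 2 had 85.1% ± 1.94 (n = 10) and recovery 3 82.6% ± 2.87 (n = 10). Recovery 3 differed from control WT by -7.24 points (SE 0.916, limma adjusted p = 1.89e-06), with control WT between 85.2 and 92.3% and recovery 3 between 76.4 and 85.9%, so the groups overlapped slightly. It was called in 20 of 20 fits that dropped 1 library each and, at 8.37e-04 (limma adjusted p), with a term for the run of library numbers. In recovery 2 the difference of -4.71 points (SE 0.916, limma adjusted p = 0.0466) was called in 4 of 20 such fits and not in a fit of both groups alone (limma adjusted p = 0.572). Against smoked WT, recovery 3 was lower by -6.69 points (SE 0.941, limma adjusted p = 4.54e-05) with no overlap, and the slope was -2.43 points per step (SE 0.297, limma adjusted p = 6.8e-07). Control and smoked Nrf2-/- sperm lay at 86.6% and 87.6%, and brain means lay between 89.3 and 90.3%.

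An intergenic region 55996 bp from Nrf1, the gene of nuclear respiratory factor 1, which is a different gene from Nrf2 (chr6:30172111-30172321), fell in small steps. Control WT sperm had 37.3% ± 3.82 (n = 10), smoked WT sperm 36.6% ± 3.55 (n = 9), and later groups 33.6% ± 3.37 (n = 9), 31.6% ± 2.57 (n = 10) and 28.9% ± 5.43 (n = 10) in recovery 1, 2 and 3. Recovery 3 differed from control WT by -8.39 points (SE 1.64, limma adjusted p = 0.0126), a call that held in 18 of 20 fits with 1 library dropped and not with both groups alone (limma adjusted p = 0.313). Columns 6 and 9 of recovery 3, at 18.6 and 19.8%, lay below the rest of their group. Control and smoked Nrf2-/- sperm lay at 32.6% and 34.0%. In an intron of Prickle2, a gene of planar cell polarity, 29481 bp from its start, smoked WT sperm was the highest WT group, at 39.1% ± 6.49 (n = 9), against 30.2% ± 6.32 (n = 10) in control WT. Recovery 1, 2 and 3 had 33.4% ± 11.3 (n = 9), 25.3% ± 9.06 (n = 10) and 16.5% ± 5.52 (n = 9). Recovery 3 was lower than smoked WT by -22.6 points (SE 3.66, limma adjusted p = 6.2e-04), with smoked WT between 27.8 and 47.1% and recovery 3 between 9.4 and 25.2%, and the call held in 19 of 19 such fits. Against control WT it differed by -13.7 points (limma adjusted p = 0.266), and smoked WT by 8.95 points (limma adjusted p = 1.0), so neither of those passed.

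**Figure D4:**
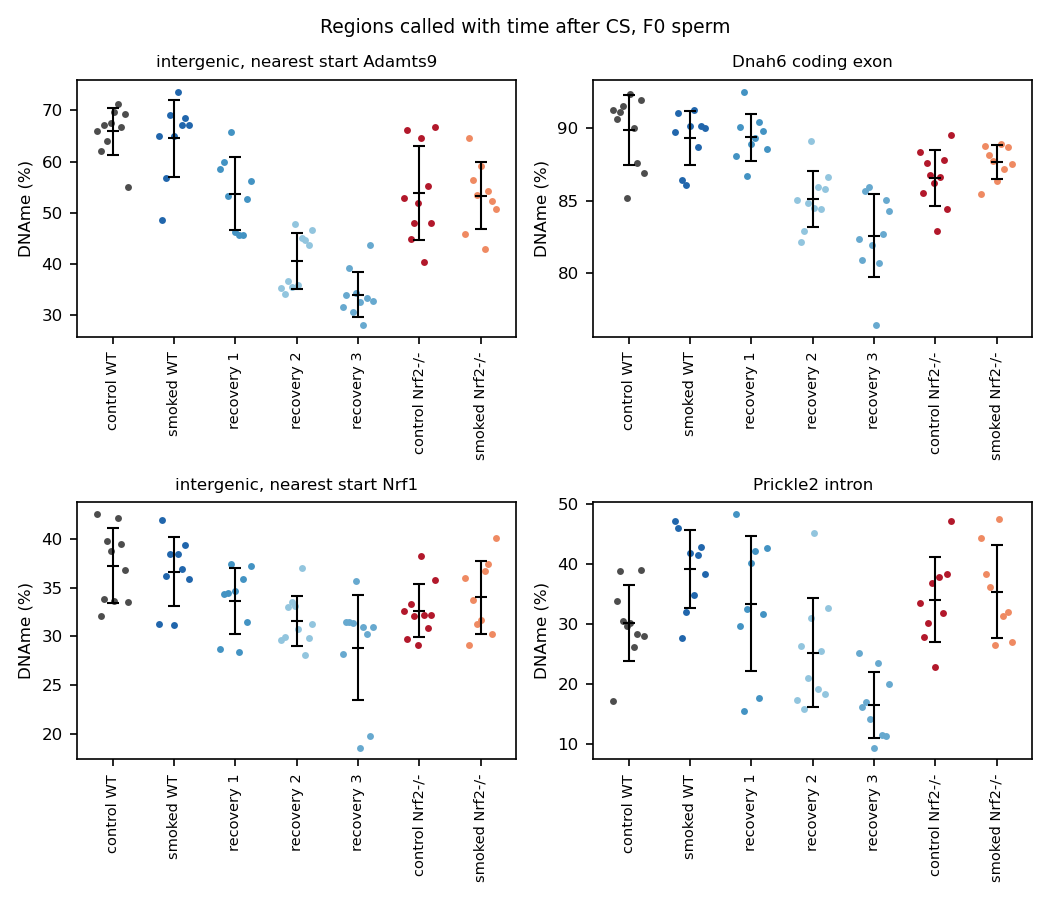
DNAme (percent, vertical axis; points are libraries, bars the mean and SD, and each panel has its own scale) in the 7 groups of F0 sperm (horizontal axis) of the 4 regions called after the end of CS exposure: near Adamts9, in Dnah6, near Nrf1 and in Prickle2. The means fall from smoked WT to recovery 3 from 64.5 to 34.1%, 89.3 to 82.6%, 36.6 to 28.9% and 39.1 to 16.5%.

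None of the 7 regions called by genotype between 50000001 and 55000000 was called in a recovery contrast. No such contrast called more than 0.142% of chromosome 6 regions (0.0493% over the genome). At that share 7 regions would be likely to hold no call, so nothing is read from this count. Osbpl3 at 50323081 differed by -5.82 points in recovery 3, Creb5 by 0.991, Gsdme by 1.15 and the Npvf region at 50753504 by 1.14 points. Single cytosines gave 0 called in recovery 1 (0.000293% over the genome), 3 in recovery 2 (0.000586%), 6 in recovery 3 (0.00293%), 6 in recovery 3 against smoked WT (0.00313%) and 6 by the slope (0.0043%). All lay in the Adamts9 and Dnah6 regions but for 1 cytosine in Nrf1 and 1 in Itpr1. At 30048615 in an intron of Nrf1 recovery 3 had 21.3% ± 15.3 (n = 4), where control WT and smoked WT were at 0 in every library (limma adjusted p = 0.0453). At 108456817 in an intron of Itpr1, smoked WT had 78.4% ± 16.4 (n = 7) and recovery 3 37.1% ± 13.9 (n = 8), with control WT between them at 64.1% ± 10.4 (n = 8), a difference of -41.4 points (limma adjusted p = 0.0212).

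At the end of exposure itself, CS gave few calls on this chromosome. The smallest p between smoked and control WT was in an intergenic region near Rybp, a Polycomb component (chr6:100366968-100367083), from 98.1% to 95.4% (-2.73 points, SE 0.808, limma adjusted p = 1.0). The 1 single cytosine called (0.000586% over the genome) was at 91819519 in an intron of Grip2, a partner of glutamate receptors. All 9 smoked WT libraries were at 100% there and control WT at 88.9% ± 7.33 (n = 10), while the other 5 groups, exposed or not, had means between 97.3 and 99.1%. In Nrf2-/- males limma called 0 regions between smoked and control (0.00637% over the genome), with 159 or 5.65% at an unadjusted p under 0.05 (5.75% over the genome), the smallest p being in Ttll3, from 0.5% to 2.1% (1.56 points, limma adjusted p = 0.512). Single cytosines there gave 2 calls (0.00176%), at 87396989 near Gkn3, with -20.7 points from 98.8% ± 3.57 (n = 9) to 78.1% ± 13.6 (n = 4), and at 138102732 near Slc15a5, from 0 to 11.5% ± 3.32 (n = 4). In F1 sperm limma called 0 regions (0% over the genome), with 96 or 6.4% at an unadjusted p under 0.05, where 5.38% were over the genome. The smallest p was in an intron of Grin2b, an NMDA receptor subunit (chr6:136123636-136123735), which had 65.4% ± 2.41 in sons of control and 77.6% ± 5.63 in sons of smoked WT sires (n = 6 each), 12.2 points apart (SE 2.39, limma adjusted p = 0.875).

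By the size rule of the study, at least 33.3% of the cytosines and the region mean moving by more than 5 points between group means, more regions counted as differentially methylated (DMRs). This rule has no error term, and what raised the counts was not tested. Chromosome 6 had 88 DMRs in smoked WT (2.61% of regions over the genome), 114 in recovery 1 (3.4%), 100 in recovery 2 (2.53%), 141 in recovery 3 (4.1%), 151 in control Nrf2-/- (5.1%) and 147 in smoked Nrf2-/- sperm (4.93%). The chromosome 6 shares, 3.13, 4.05, 3.55, 5.01, 5.37 and 5.22% in the same order, lay above the genome's in each, without a test. This order did not hold in every setting, since for a change above 10 points smoked Nrf2-/- sperm had 1.07% on chromosome 6 and 1.1% over the genome, and with cytosines joined up to 300 bp control Nrf2-/- sperm had 8.27% and 8.28%. Lower DMRs outnumbered higher ones, at 63 to 25, 80 to 34, 59 to 41, 96 to 45, 102 to 49 and 105 to 42. Over the genome the lower DMRs made up 1.93, 2.51, 1.66, 2.86, 3.13 and 3.08% of regions and the higher ones 0.683, 0.888, 0.871, 1.25, 1.97 and 1.85% in that order, so that lower DMRs also led there. With cytosines joined up to 300 bp the split turned in recovery 1 (116 lower to 131 higher), recovery 3 (121 to 182) and control Nrf2-/- sperm (148 to 189).

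The gene lists fixed for this chromosome held 1 called region in F0 sperm. With 0.711% and 0.64% of all chromosome 6 regions called in control and smoked Nrf2-/- sperm, lists of this size would hold about 1 call or fewer at that share, so nothing is read from their counts. A region was given to a gene when it overlapped the gene or the 2000 bases before its start. Of the HoxA cluster, 12 of 12 genes had 49 regions in F0 sperm, of which 0 were called in any F0 contrast, with differences from -2.55 to 3.51 points in control Nrf2-/- sperm and medians of -0.0423 (control Nrf2-/-), -0.0543 (smoked Nrf2-/-) and -0.0017 points (recovery 3). Over all 2814 regions the medians were -0.0673, -0.144 and 0.0534 points. The cluster lies within the same 5-Mb bin as Osbpl3. Other developmental transcription factors (12 of 14 genes, 93 regions) gave 0 calls, and their extremes were in an intron of Foxp1 at 99030999, at -7.37 and -10.1 points in control and smoked Nrf2-/- sperm. Synaptic and neuronal genes (27 of 29 genes, 152 regions) gave 1 call, the Atp2b2 region named above, higher in smoked Nrf2-/- sperm, and their extreme in recovery 3 was an intron of Ptprz1, a receptor phosphatase, at -14.1 points (limma adjusted p = 0.791). The antioxidant, aldehyde and drug metabolism genes (6 of 9 genes, 17 regions) gave 0 calls, with medians of -0.147, -0.165 and 0.214 points in control Nrf2-/-, smoked Nrf2-/- and recovery 3 and an extreme at Aldh1l1, a folate enzyme, of -4.99 points in control Nrf2-/- sperm. Imprinted genes (5 of 5, 16 regions), germline and pluripotency genes (4 of 6, 7 regions), immune and killer cell receptors (10 of 274, 11 regions) and chemosensory receptors (12 of 150, 13 regions) gave 0 calls each. The chemosensory receptors had medians of -1.10 and -1.14 points in the Nrf2-/- groups and 0.173 in recovery 3, with an extreme at Vmn1r20 of -9.41 and -8.41 points. In brain, 0 regions of any of these lists were called in any contrast.

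No contrast of the mean DNAme over all scoreable cytosines of the chromosome passed after adjustment, while 2 brain contrasts did when only positions measured in each brain library were averaged (0.461 points for sons of control Nrf2-/- against control WT sires and -0.549 points for sons of smoked against control Nrf2-/- sires, Benjamini-Hochberg adjusted exact permutation p = 0.0239 for both). Over its scoreable cytosines, F0 sperm groups averaged 36.2 to 36.9%. In the 11 contrasts tested, Benjamini-Hochberg adjusted values of permutation tests were all at 0.103 or above. That value belonged to brain, where sons of smoked Nrf2-/- sires (36.6% ± 0.697) differed by -0.837 points from sons of control Nrf2-/- sires (37.4% ± 0.407, n = 8 each; two-sided exact permutation p = 0.00932). F1 sperm had 39.5% ± 2.67 in sons of control and 41.7% ± 1.37 in sons of smoked WT sires (exact permutation p = 0.0874, adjusted 0.232), with column 3 of the control group the lowest at 35.2%.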

How the data were processed

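RRBS libraries of F0 sperm, F1 sperm and F1 brain were cut with MspI and TaqαI. The authors aligned reads to mm10 with the Bismark pipeline (version not given in the sources used here) and deposited, for each group, the percent of reads at each cytosine that stayed unconverted, as 1 column per library. No column was pooled and 0 columns were unused. Groups followed the sample titles, and the labels and methods treat replicates as separate animals. How many sires or litters the sons of a group came from is not stated in the titles or methods. The tests in F1 sperm and brain therefore count each son as independent, and a share of sires between sons could not be taken into account.

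From these percents, a cytosine was scoreable when every group of the tissue had at least 4 libraries with a value. Scoreable cytosines at most 100 bp apart were joined, and regions with at least 3 cytosines and longer than 50 bp were kept. The value of a library needed at least 50% of the cytosines of a region and was adjusted for missing cytosines, so that it can pass 100 slightly. Positions from 20000000 onwards are described. Groups of a tissue were fitted together with limma 3.58.1 in R 4.3.3, and p-values were adjusted by Benjamini-Hochberg over all regions of the genome (called at an adjusted p under 0.05). The fit was tested on simulated data. Chromosome means were compared by permutation (100000 resamples where both groups had 10 libraries, exact otherwise). Tables and figures used Python 3.11.15 with numpy 2.4.6, pandas 2.3.3 and scipy 1.17.1, and genes came from GENCODE M21.

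The regions, gene lists and tests were chosen with earlier results of these data known. Regions were named by a rule, namely the 10 with the highest mean genotype difference among those called in both F0 contrasts, called regions of the recovery and brain contrasts (at most 6 each) and of the smoke and F1 sperm contrasts (at most 3), otherwise the region with the smallest p, with brain regions that overlap these, and the extreme of each gene list. The region named by this rule for recovery 1 is not reported here. Alternatives were joining up to 300 bp, a minimum of 6 libraries (5 in F1 sperm), the arcsine square root, no length minimum, both groups alone, a library left out in turn, and, for the size rule, 10 points. A term for the run of facility numbers, regions without the cytosines over 50 points apart by genotype, and the single-cytosine fit were added after seeing the data.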

Additional observations from a re-analysis of the deposited data

Results flagged for a closer look

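In 17 of 143 groups of 4 to 10 libraries tested, the highest or lowest library lay farther from the rest than Dixon's limit, where chance alone marks about 1 group in 20.

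In F0 sperm, 3 of these were column 10 of control Nrf2-/-, which stood at 87.853% in Gsdme (others 69.992 to 74.02%), 65.455% at Osbpl3 50323081 (others 5.0 to 32.917%) and 73.284% in Creb5 (others 59.561 to 64.805%). Column 6 of the same group stood at 45.695% in the Osbpl3 region at 50345941 (others 70.695 to 93.506%). In control WT, column 7 stood at 85.0% in Gsdme (others 95.061 to 98.735%), and column 5 at 92.553% in C530044C16Rik (others 95.852 to 98.472%) and at 63.299% in the Cntn6 region at 105025856 (others 81.991 to 88.703%). For the mean DNAme of the chromosome, smoked WT column 4 stood at 33.179% (others 35.518 to 37.063%), recovery 1 column 2 at 37.266% (others 36.319 to 36.716%) and smoked Nrf2-/- column 3 at 34.292% (others 36.124 to 37.182%). The 2 low libraries also had the most chromosome 6 positions with a value in their groups, at 87769 (smoked WT) and 72002 (smoked Nrf2-/-). Recovery 1 column 2, with 59483, lay within its group's range of 48113 to 65736. Whether the number of positions bears on the mean was not tested.

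In brain, column 5 of sons of control Nrf2-/- sires stood at 80.475% in the Npvf region at 50753504 (others 51.177 to 64.775%). Column 1 of sons of smoked WT sires stood at 77.949% in the Osbpl3 region at 50345941 (others 84.392 to 86.944%) and at 85.887% in Dnah6 (others 89.708 to 91.841%). Column 6 of sons of control WT sires stood at 85.617% in Dnah6 (others 88.357 to 90.492%). In the Foxj2 region, column 3 of sons of control WT sires stood at 3.272% (others 0 to 1.081%), column 7 of sons of smoked WT sires at 3.604% (others 0 to 0.952%) and column 7 of sons of smoked Nrf2-/- sires at 9.343% (others 3.333 to 6.0%).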

How the results depend on the processing

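Among the results that answer a comparison, 91 alternatives other than leaving out a library gave the same direction and call, or a count within 1.5 times. In recovery 2 against control WT, 1 region was called in place of 2 with joining up to 300 bp, without a length minimum, on the arcsine scale, with both groups alone and with the number run as a term. With both groups alone, and also without the cytosines over 50 points apart, 12 regions were called in control and 11 in smoked Nrf2-/- sperm. In brain, smoked WT gave 0 with joining up to 300 bp, on the arcsine scale and with both groups alone, control Nrf2-/- gave 1 without a length minimum, and smoked Nrf2-/- gave 1 without a length minimum and on the arcsine scale.

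DMRs by size moved with every setting in the WT contrasts. For a change above 10 points, joining up to 300 bp, the higher minimum of libraries and no length minimum, in that order, they numbered 9, 213, 50 and 248 in smoked WT, 20, 247, 72 and 272 in recovery 1, 9, 216, 66 and 246 in recovery 2, and 37, 303, 81 and 313 in recovery 3. In control Nrf2-/- sperm they numbered 33, 337 and 329, and in smoked Nrf2-/- sperm 30, 292 and 319, under the same settings other than the library minimum. The mean DNAme of recovery 3 against control WT turned from 0.263 to -0.0671 points over cytosines in regions only. Over cytosines with a value in every library, sons of control Nrf2-/- against control WT sires differed by 0.4606 points (exact permutation p = 0.00435, adjusted 0.0239), and sons of smoked against control Nrf2-/- sires by -0.5485 points (exact permutation p = 0.00404, adjusted 0.0239).

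Without the cytosines over 50 points apart, the C530044C16Rik region turned to 0.3745 points in control and 0.0424 points in smoked Nrf2-/- sperm, and Gsdme to 0.8334 and 0.8675 points, since those cytosines carried the difference. For named regions, 224 alternatives kept direction and call, 21 lost the call and 1 gained it. With a library left out, the counts of named regions were 811, 85 and 3 in the same order. The adjusted p (limma) of Gm19265 in sons of smoked WT sires ranged from 0.00747 to 0.487.

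With a library left out in turn, regions called ranged from 1 to 2 in recovery 2, from 2 to 3 in recovery 3, and from 3 to 4 both in recovery 3 against smoked WT and for the slope. They ranged from 14 to 23 in control Nrf2-/- sperm (23 without its column 10) and from 15 to 19 in smoked Nrf2-/- sperm. In brain they ranged from 0 to 1 for smoked WT, from 0 to 2 for control Nrf2-/- (2 without its column 5) and from 0 to 1 for smoked Nrf2-/- sires (1 without control WT column 3 or smoked Nrf2-/- column 8), and the other contrasts of F0 sperm and brain stayed at 0. The cause of these changes was not tested. No library was left out in F1 sperm. No paired analysis was possible because the columns carry no replicate numbers that match the labels. Since read counts are unknown, how depth limits a value cannot be given.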

Other observations

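At some sites of the stretch near Osbpl3, the group means in the sperm of sons, which have CAST/EiJ mothers by the described breeding, lay below those of F0 sperm. The Creb5 region, which began at 53308726 in this tissue, averaged 38.2% ± 6.32 (SD, n = 4) for control WT and 41.4% ± 6.51 (n = 4) for smoked WT sires, where control WT F0 sperm had a median of 95.9%. It lacked the cytosine at 53308767, so these values are not from the same cytosines. The Osbpl3 cytosine at 50323081 averaged 34.1% (n = 4) for control WT and 37.5% (n = 4) for smoked WT sires, where control WT F0 sperm had 80.7% (n = 9). The part of the C530044C16Rik region measured in F1 sperm, up to 50781289, lay at 65.3% ± 13.1 (n = 6) and 75.4% ± 11.03 (n = 6), where the whole region had 96.7% in control WT F0 sperm. Gsdme lay at 89.8% ± 8.01 (n = 5) and 92.05% ± 2.83 (n = 6), where control WT F0 sperm had 95.7% ± 3.95 (n = 10). These levels were not tested between tissues. Outside the stretch, the noncoding gene Gm43578 averaged 59.1% ± 9.27 (n = 5) for control WT and 76.8% ± 8.72 (n = 7) for smoked WT sires, 17.7 points apart (limma adjusted p = 0.902).

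F0 sperm and brain also had different levels at regions within and outside the stretch. The region nearest Bhlhe40 had 31.3% in control WT F0 sperm and 85.9% in brains of sons of control WT sires, and the Npvf region at 50765590 had 20.6 and 92.6%. These levels were not tested against each other.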
